A study of Mus musculus with 4 samples.

Results

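The genes described here are 36 genes of glycolysis and of the response to low oxygen, out of 31054 features counted in each cell. They were chosen as a list of symbols: 3 membrane transporters of glucose and lactate, 15 glycolytic enzymes, 2 enzymes that set the fate of pyruvate, 3 parts of the oxygen sensor and 13 further genes that low oxygen is known to induce. Each was read as raw counts of unique molecular identifiers (UMIs, each standing for 1 captured transcript) in tumour cells, macrophages, neutrophils and T cells. All 36 had UMIs in tumour cells and in macrophages of both untreated libraries.

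The libraries were 10x Genomics 3' single-cell libraries of mammary tumours grown in female mice after injection of tumour cells into the number 4 mammary gland. T11-Apobec tumours grew in BALB/c mice and KPB25Luv tumours in FVB/NJ mice. For each model 1 library came from a tumour left untreated. The other came from a tumour collected after 7 days of anti-PD1 (10 mg/kg) plus anti-CTLA4 (100 µg), antibodies against 2 inhibitory receptors of T cells, given biweekly from a tumour diameter of 5 mm. Whether a library pooled several tumours is not given in the sources used here.

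With 1 library per group there was no replicate and no test. Every comparison below is between 2 libraries, and each 95% interval is an exact Poisson or binomial interval that covers counting error only. Model, mouse strain and library cannot be told apart, and neither can treatment and library. A level is given as CPM, the UMIs of a gene per 1000000 UMIs of all genes in the same cell class of the same library. Levels are compared as ratios between classes and libraries, and no ratio is taken between genes. A gene is called higher or lower when 2 levels differ at least 1.5-fold and the 2 libraries together hold at least 10 of its UMIs.

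Glycolysis splits glucose into pyruvate in the cytosol and yields ATP without oxygen. Under low oxygen the prolyl hydroxylases stop marking the transcription factor subunit Hif1a for destruction, and the stabilised factor turns on glucose uptake, glycolytic enzymes, lactate export and genes that slow mitochondrial respiration. Tumour cells, neutrophils, activated T cells and inflammatory macrophages are all known for high glycolytic flux. The factor binds a short core sequence, ACGTG or GCGTG.

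Promoter windows of GRCm38.p6 from RefSeq, each running from 250 bases before to 50 bases after a transcript start, matched 34 of the 36 genes. Bnip3l and Ndrg1 were not matched, and Ero1l was matched through its RefSeq symbol Ero1a. The core in either spelling, on either strand and counting overlaps, was found in 78.0% of the 50 windows of these genes and in 43.8% of the 32851 windows of all genes. At least 3 matches were found in 30.0% of the windows of these genes and in 8.9% of all windows. The windows of these genes were also richer in G and C, with a median of 64% against 52.7%, and the part of base composition in the difference was not tested. Many of the genes were chosen as known to be induced by low oxygen, so their share of windows with the core is not independent of that choice. Some windows of the same gene overlap, as for Aldoa, Eno1 and Pfkm, and share matches. A match is a string of letters and not a measured binding site.

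Windows are shown for 6 genes that the results turn on, with the core in capitals on whichever strand it lies. Ankrd37 and Bnip3 were highest in neutrophils of both models and were detected in the same tumour cells more often than their separate shares give. Egln3, Car9 and P4ha2 separated the tumour cells of the models, and Aldoc separated them in the other direction. Ankrd37 (chr8:45999801-46000100, minus strand) and Bnip3 (chr7:138909457-138909756, minus strand) held 4 and 5 matches. Egln3 (chr12:54203825-54204124, minus strand) and Car9 (chr4:43506776-43507075, plus strand) held 1 each. P4ha2 (chr11:54100674-54100973, plus strand) held 4 and the first of the 2 Aldoc windows (chr11:78322823-78323122, plus strand) held 3.
Ankrd37: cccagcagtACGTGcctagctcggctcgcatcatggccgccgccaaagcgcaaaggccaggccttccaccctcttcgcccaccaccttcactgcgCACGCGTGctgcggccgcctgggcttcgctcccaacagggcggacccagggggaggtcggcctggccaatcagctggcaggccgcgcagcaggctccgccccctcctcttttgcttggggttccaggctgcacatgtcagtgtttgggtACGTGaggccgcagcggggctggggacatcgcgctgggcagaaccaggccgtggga
Bnip3: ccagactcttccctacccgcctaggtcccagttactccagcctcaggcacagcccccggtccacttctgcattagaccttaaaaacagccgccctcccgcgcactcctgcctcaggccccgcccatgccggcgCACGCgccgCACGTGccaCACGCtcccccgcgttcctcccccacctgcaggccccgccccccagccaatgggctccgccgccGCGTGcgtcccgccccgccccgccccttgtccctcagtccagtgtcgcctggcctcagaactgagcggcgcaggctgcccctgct
Egln3: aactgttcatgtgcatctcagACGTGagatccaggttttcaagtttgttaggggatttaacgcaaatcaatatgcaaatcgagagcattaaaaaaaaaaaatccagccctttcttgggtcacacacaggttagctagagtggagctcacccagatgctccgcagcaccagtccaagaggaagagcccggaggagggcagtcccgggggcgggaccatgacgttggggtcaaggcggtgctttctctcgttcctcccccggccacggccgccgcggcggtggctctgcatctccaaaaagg
Car9: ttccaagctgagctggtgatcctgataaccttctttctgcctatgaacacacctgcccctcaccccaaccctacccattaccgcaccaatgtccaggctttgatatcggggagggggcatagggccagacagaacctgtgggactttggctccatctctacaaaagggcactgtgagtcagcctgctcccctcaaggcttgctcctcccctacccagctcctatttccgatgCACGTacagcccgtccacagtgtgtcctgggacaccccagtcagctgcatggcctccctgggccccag
P4ha2: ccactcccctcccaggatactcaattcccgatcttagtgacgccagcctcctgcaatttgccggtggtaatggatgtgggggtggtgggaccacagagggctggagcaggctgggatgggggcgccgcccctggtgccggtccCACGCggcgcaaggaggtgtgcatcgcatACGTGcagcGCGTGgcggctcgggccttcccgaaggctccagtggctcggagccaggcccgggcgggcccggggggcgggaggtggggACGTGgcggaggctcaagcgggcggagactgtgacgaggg
Aldoc: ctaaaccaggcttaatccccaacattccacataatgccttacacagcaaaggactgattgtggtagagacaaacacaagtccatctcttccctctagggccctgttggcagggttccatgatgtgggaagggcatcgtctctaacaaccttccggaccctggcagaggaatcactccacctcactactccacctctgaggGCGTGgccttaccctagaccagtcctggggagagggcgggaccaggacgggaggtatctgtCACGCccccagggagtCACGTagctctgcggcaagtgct

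After filtering, 5041 to 9388 cells per library remained. Cells were assigned to a class by the UMIs of fixed marker lists. T11-Apobec gave 536 tumour cells under treatment and 4750 without, and KPB25Luv 35 and 2233. Macrophages numbered 557, 2321, 22 and 385 in the same order, neutrophils 36, 136, 19 and 453, and T cells 2837, 341, 3767 and 1135. Only classes with at least 50 cells in both libraries were compared, which leaves out all neutrophil comparisons by treatment and the KPB25Luv tumour cells and macrophages by treatment. Median depth differed between classes and libraries, from 667 UMIs in untreated T11-Apobec neutrophils to 24600 in treated T11-Apobec tumour cells. T11-Apobec tumour cells were set by mesenchymal genes and KPB25Luv tumour cells by keratins, claudins and Epcam, an epithelial adhesion gene. T11-Apobec cells with at least 3 of these epithelial markers were not taken as tumour cells. Epcam stood at 539 CPM in untreated KPB25Luv and 0.221 in untreated T11-Apobec tumour cells, which follows in part from how the cells were chosen. Of separate check lists, 7 T cell genes summed to between 1992 and 2445 CPM in T cells and to at most 208 in any other class, and 8 neutrophil genes to between 19200 and 24730 in neutrophils and to at most 599 elsewhere. The macrophage list summed to between 23680 and 30860 in macrophages but also to between 3672 and 12990 in neutrophils, where its member Cd14 was higher than in macrophages in each library. The mesenchymal list of T11-Apobec tumour cells was the least specific, at 4302 and 4610 in them and up to 2016 in T cells of the same model, whose Thy1 stood at 819 CPM under treatment against 7.96 in tumour cells. The libraries shared 34 to 125 cell barcodes pairwise, at most 1.85% of the smaller library. Free RNA differed between libraries: in the untreated KPB25Luv library the epithelial gene Wfdc2 stood at 12.1% to 15.0% of its tumour-cell level in T cells, macrophages and neutrophils, against at most 0.182% in the treated one. In T11-Apobec the tumour gene Cdkn2a stood at 1.80% to 5.998% in the same classes.

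Together the 36 genes took between 0.551% and 1.14% of the UMIs of a class. In untreated T11-Apobec they summed to 9601 CPM in neutrophils (95% interval 8999 to 10230), 8376 in tumour cells (8353 to 8398), 5577 in macrophages (5530 to 5624) and 5514 in T cells (5336 to 5697). In untreated KPB25Luv the order of the point values was the same, with 10660 in neutrophils (10380 to 10960), 8577 in tumour cells (8551 to 8602), 8002 in macrophages (7897 to 8108) and 5835 in T cells (5769 to 5901). The intervals of macrophages and T cells overlapped in T11-Apobec and those of all 4 classes were separate in KPB25Luv. Counted per cell, neutrophils came last: in untreated T11-Apobec a tumour cell held 111.8 UMIs of the 36 genes on average, a macrophage 23.3, a T cell 10.6 and a neutrophil 6.94, of 13350 UMIs of all genes in a tumour cell and 723 in a neutrophil. The levels below are therefore shares of a cell class's RNA and not amounts per cell.

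**Figure D1:**
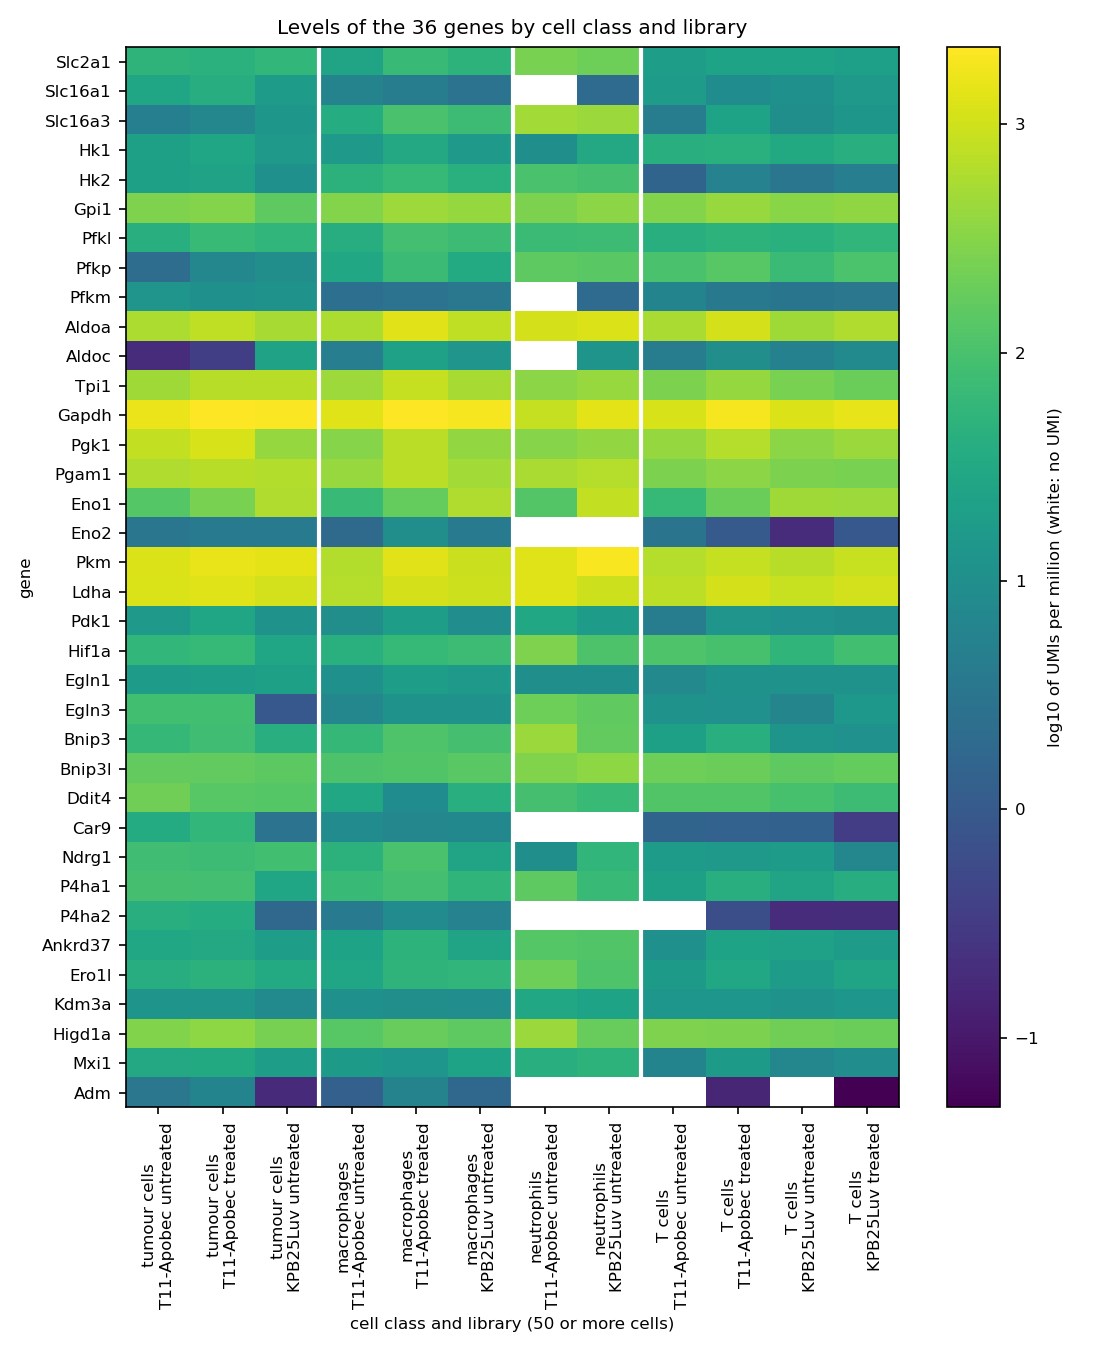
Levels of the 36 genes (rows) in each cell class and library with 50 or more cells (columns), as log10 of CPM, with white for no UMI. Gapdh, Pkm, Ldha and Aldoa were high in every column, Egln3 was far lower in KPB25Luv than in T11-Apobec tumour cells, and Eno1 was lower in the T11-Apobec than in the KPB25Luv columns of each class.

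Neutrophils held the highest level of 12 of the 36 genes in untreated T11-Apobec and of 12 in untreated KPB25Luv, by at least 1.5-fold over each of the other 3 classes and with at least 10 UMIs in neutrophils. Among all genes the share called this way was 2.92% of 14220 in T11-Apobec and 7.43% of 14399 in KPB25Luv. The libraries shared 9 of these genes, which is 75% of each list, and 2.51% of all 13222 genes tested in both were highest in neutrophils in both. These shares count every gene with at least 10 UMIs over the compared classes together. Neutrophils held 98318 UMIs in T11-Apobec and 485668 in KPB25Luv, so many weaker genes could not reach 10 UMIs in them. Such genes lower the shares, which are not matched to the levels of the 36 genes. The 9 genes were Slc2a1, Slc16a3, Hk2, Pfkp, Aldoa, Egln3, Bnip3, Ankrd37 and Ero1l. Under the other filters and settings that left at least 50 neutrophils the counts ran from 9 to 15 in T11-Apobec and from 11 to 13 in KPB25Luv. The shares of all genes given above are for the main setting only.

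Slc16a3 encodes the monocarboxylate carrier that exports lactate. It stood at 498 CPM in T11-Apobec neutrophils (95% interval 369 to 659, 49 UMIs), against 37.5 in macrophages, 5.08 in tumour cells and 4.59 in T cells. In KPB25Luv the levels were 432 in neutrophils (376 to 495, 210 UMIs), 75.3 in macrophages, 14.05 in tumour cells and 10.2 in T cells. The order of the 4 classes was the same in both models, and in T11-Apobec tumour cells and T cells did not differ beyond their intervals.

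Slc2a1 encodes the glucose transporter that most cells rely on. Its level in neutrophils was 254 CPM in T11-Apobec (165 to 375) and 208 in KPB25Luv (169 to 253). Tumour cells followed with 51.75 and 58.8, then macrophages with 25.2 and 49.4, then T cells with 19.9 and 24.3. Macrophages did not differ beyond their intervals from T cells in T11-Apobec or from tumour cells in KPB25Luv. At an equal depth of 1000 UMIs per cell, 13.0% of 200 KPB25Luv neutrophils had a Slc2a1 UMI (8.67% to 18.5%), against 5.47% of 2232 tumour cells and 2.39% of 1087 T cells. That comparison left out 253 shallower neutrophils, and without thinning the share was 16.3% in neutrophils and 57.0% in the far deeper tumour cells.

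Hk2 and Pfkp encode a hexokinase and a phosphofructokinase, enzymes of the first steps of glycolysis, and Aldoa encodes the main aldolase. In neutrophils Hk2 stood at 102 (48.8 to 187) and 94.7 CPM (69.3 to 126) in T11-Apobec and KPB25Luv. The T11-Apobec value of Hk2 rested on 10 UMIs, the lowest number that the call allowed, and those of Pfkp and Ankrd37 on few more. Pfkp stood at 153 (85.4 to 252) and 144 (112 to 182), with T cells next at 99.4 and 71.6 and tumour cells last at 2.26 and 9.86. Aldoa stood at 1098 (901 to 1326) and 1215 (1119 to 1317), and the other 3 classes of T11-Apobec lay between 561 and 591. The intervals of Pfkp in neutrophils and T cells overlapped in T11-Apobec and were separate in KPB25Luv.

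Among the oxygen-response genes, Egln3, an oxygen-sensing prolyl hydroxylase that is itself induced by low oxygen, reached 203 (124 to 314) and 163 CPM (129 to 203) in neutrophils. Bnip3, a mitochondrial protein of mitophagy, reached 437 (316.5 to 589) and 167 (132 to 207). Ero1l, an oxidase of protein folding in the endoplasmic reticulum, reached 203 (124 to 314) and 113 (85.3 to 147), and Ankrd37, a small ankyrin-repeat protein, reached 132 (70.4 to 226) and 119 (90.7 to 154). Free RNA at the level of Wfdc2 would bring at most 6.55% of the KPB25Luv neutrophil level of any of the 9 genes. In treated libraries only 36 and 19 neutrophils were found, and their values, such as 237 and 435 CPM of Slc2a1 from 8 and 7 UMIs, are too few to compare.

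**Figure D2:**
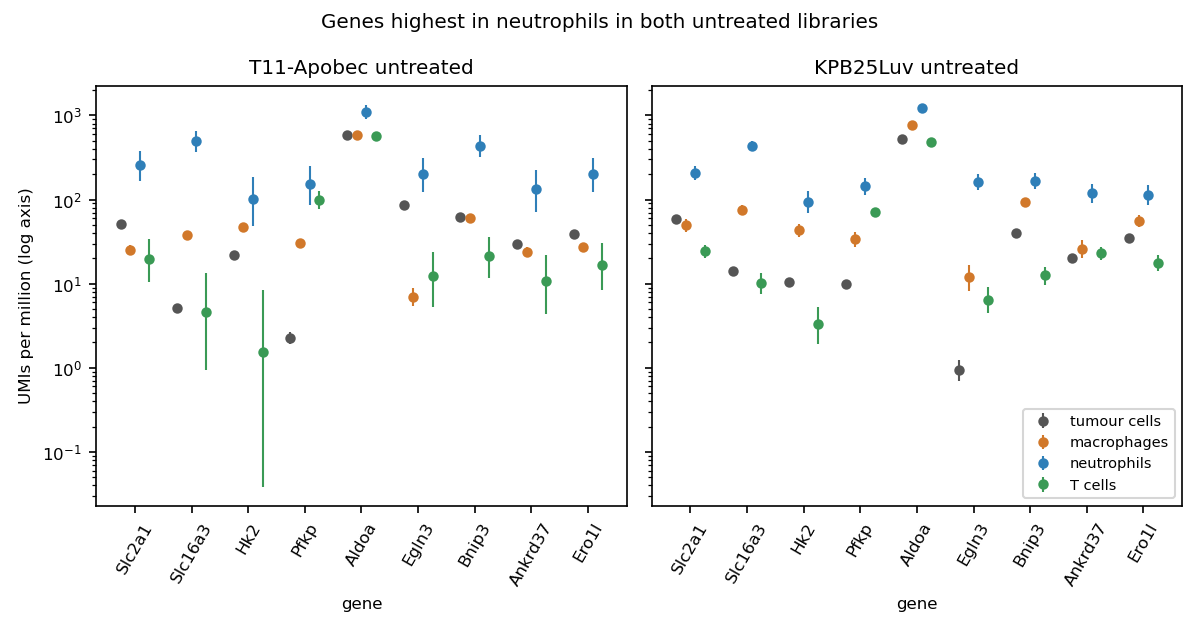
Level of the 9 genes that were highest in neutrophils in both untreated libraries, in CPM on a log axis, with exact 95% Poisson intervals for counting error. The neutrophil point lies above the other 3 classes for each gene in both panels.

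The remaining genes were spread over the other classes. Tumour cells were highest for 8 genes in untreated T11-Apobec (Pfkm, Pgk1, Egln1, Ddit4, Car9, Ndrg1, P4ha2 and Adm), against 27.7% of all genes. In the neutrophils of that library 3 UMIs would be 30.5 CPM. For weak genes among the 8, such as Adm and Egln1, a lower level in neutrophils was therefore not resolved. In settings that left too few neutrophils to compare, the count was 14 to 24, against 27.72% to 40.87% of all genes. Tumour cells were highest for 4 in untreated KPB25Luv (Slc16a1, Pfkm, Aldoc and Ndrg1), against 26.5% of all genes. Macrophages were highest for 0 genes in T11-Apobec (8.86% of all genes) and for Car9 and P4ha2 in KPB25Luv (6.43% of all genes). Car9 and P4ha2 stood at only 7.21 and 5.77 CPM in those macrophages, where 3 UMIs in neutrophils would be 6.18. With cells thinned to 1000 UMIs, KPB25Luv macrophages were highest for 0 genes (4.573% of all genes). T cells were highest for Hk1 in T11-Apobec (7.81% of all genes) and for 0 genes in KPB25Luv (7.75%). For the rest, 15 genes in T11-Apobec and 18 in KPB25Luv, no class stood 1.5-fold above the others; Tpi1, Gapdh, Pgam1, Pkm and Ldha were in this group in both models. In treated T11-Apobec, without a neutrophil class, tumour cells were highest for 7 genes (25.9% of all genes), macrophages for 5 (11.3%) and T cells for Pfkp and Hif1a (18.1%), and the 5 in macrophages were Slc16a3, Hk2, Aldoc, Eno2 and Ankrd37.

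The largest difference by treatment was in T11-Apobec macrophages. Of the 36 genes, 26 were higher in the treated library and 1 was lower, with a median log2 ratio of 0.92. Among all 11613 genes tested, 10.3% were higher and 13.9% lower, with a median of -0.08. The count of higher genes ran from 24 to 27 over all 11 alternatives, including 27 in macrophages of 4000 to 10000 UMIs only, an alternative chosen after seeing the data because median depth was 9505 UMIs under treatment and 3921 without. The summed level of the 36 genes was 10180 CPM (10100 to 10270) against 5577 (5530 to 5624).

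The call covered 2 of 3 transporters, 7 of 9 enzymes of upper glycolysis, 6 of 6 of lower glycolysis, both pyruvate enzymes, 3 of 3 oxygen-sensor genes and 6 of 13 hypoxia-response genes. Among genes with at least 50 UMIs in the treated library, the 6 with the interval farthest from 0 were Aldoc, Eno2, Slc16a3, Eno1, Slc2a1 and Aldoa. Aldoc, a second aldolase known from brain, stood at 22.8 CPM (19.0 to 27.2) under treatment and 4.86 (3.57 to 6.46) without, and the log2 ratio was 2.22 (1.74 to 2.75). Eno2, an enolase known from neurons, stood at 9.79 against 1.96, from 54 and 19 UMIs, a log2 ratio of 2.29 (1.54 to 3.16).

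Slc16a3 stood at 99.7 CPM (91.5 to 108) in the macrophages under treatment and 37.5 (33.7 to 41.6) in those without, a log2 ratio of 1.41 (1.22 to 1.61). Slc2a1 stood at 68.1 against 25.2, a log2 ratio of 1.43 (1.20 to 1.67), and Eno1, the enolase of most tissues, at 171 against 67.0, a ratio of 1.35 (1.202 to 1.495). The genes of glucose import and lactate export were thus both among the leading ones, whereas Slc16a1, a carrier that can move lactate in either direction, stood at 4.53 against 5.99, within its interval of no difference.

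The abundant enzymes of glycolysis differed by less, with narrow intervals. The log2 ratio was 1.21 for Aldoa (1.16 to 1.26), 1.19 for Pgk1, 1.06 for Pkm, 0.93 for Tpi1, 0.73 for Gapdh and 0.69 for Ldha. Pdk1, the kinase that keeps pyruvate out of mitochondria, had a log2 ratio of 1.05 (0.64 to 1.46). Among hypoxia-response genes the ratio was 1.06 for Ankrd37, 1.04 for Ndrg1, 0.92 for Ero1l and 0.91 for Bnip3. Adm, a vasodilator peptide, had a ratio of 2.12 (1.19 to 3.20) from 33 and 13 UMIs.

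Some targets of the same response did not share the difference. Car9, a carbonic anhydrase that acidifies the surroundings of cells, stood at 6.89 CPM under treatment and 8.68 without, and its interval of the log2 ratio, -0.93 to 0.24, holds 0. Bnip3l, P4ha1, Kdm3a, Higd1a, Mxi1, Hk2, Pfkm and Slc16a1 also stayed within 1.5-fold. Ddit4, an inhibitor of the growth kinase mTORC1 that many stresses induce, was the 1 gene called lower, at 8.88 against 30.5, a log2 ratio of -1.77 (-2.25 to -1.34). Of the 18 genes of a list for stress during tissue dissociation, 12 were lower and 0 higher in the same comparison, with a median log2 ratio of -1.10; the part of this in the Ddit4 difference was not tested. Free RNA at the level of Cdkn2a was 1.80% of the tumour level in treated and 3.73% in untreated macrophages. At these levels it would bring 27.9% and 25.9% of the Ddit4 level, and in the untreated library 46.07% of that of Egln3 and 39.7% of that of P4ha2, both called higher; its part in the ratios was not tested.

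Other genes of the pathway, from a list of 60, gave 12 of 51 tested higher and 10 lower, against 10.3% and 13.9% of all genes, with a median log2 ratio of 0.12. Hk3, a hexokinase of myeloid cells, led at 65.2 against 11.8 CPM, a log2 ratio of 2.465 (2.16 to 2.79). Bhlhe40, a transcription repressor, Gys1, a glycogen synthase, and Mif, a cytokine, had ratios of 1.78, 1.62 and 0.69. The hypoxia-induced genes Vegfa and Hilpda, at 0.17 and 0.12, were within 1.5-fold. Lower genes were led by Errfi1, an inhibitor of the EGF receptor, at -1.35.

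**Figure D3:**
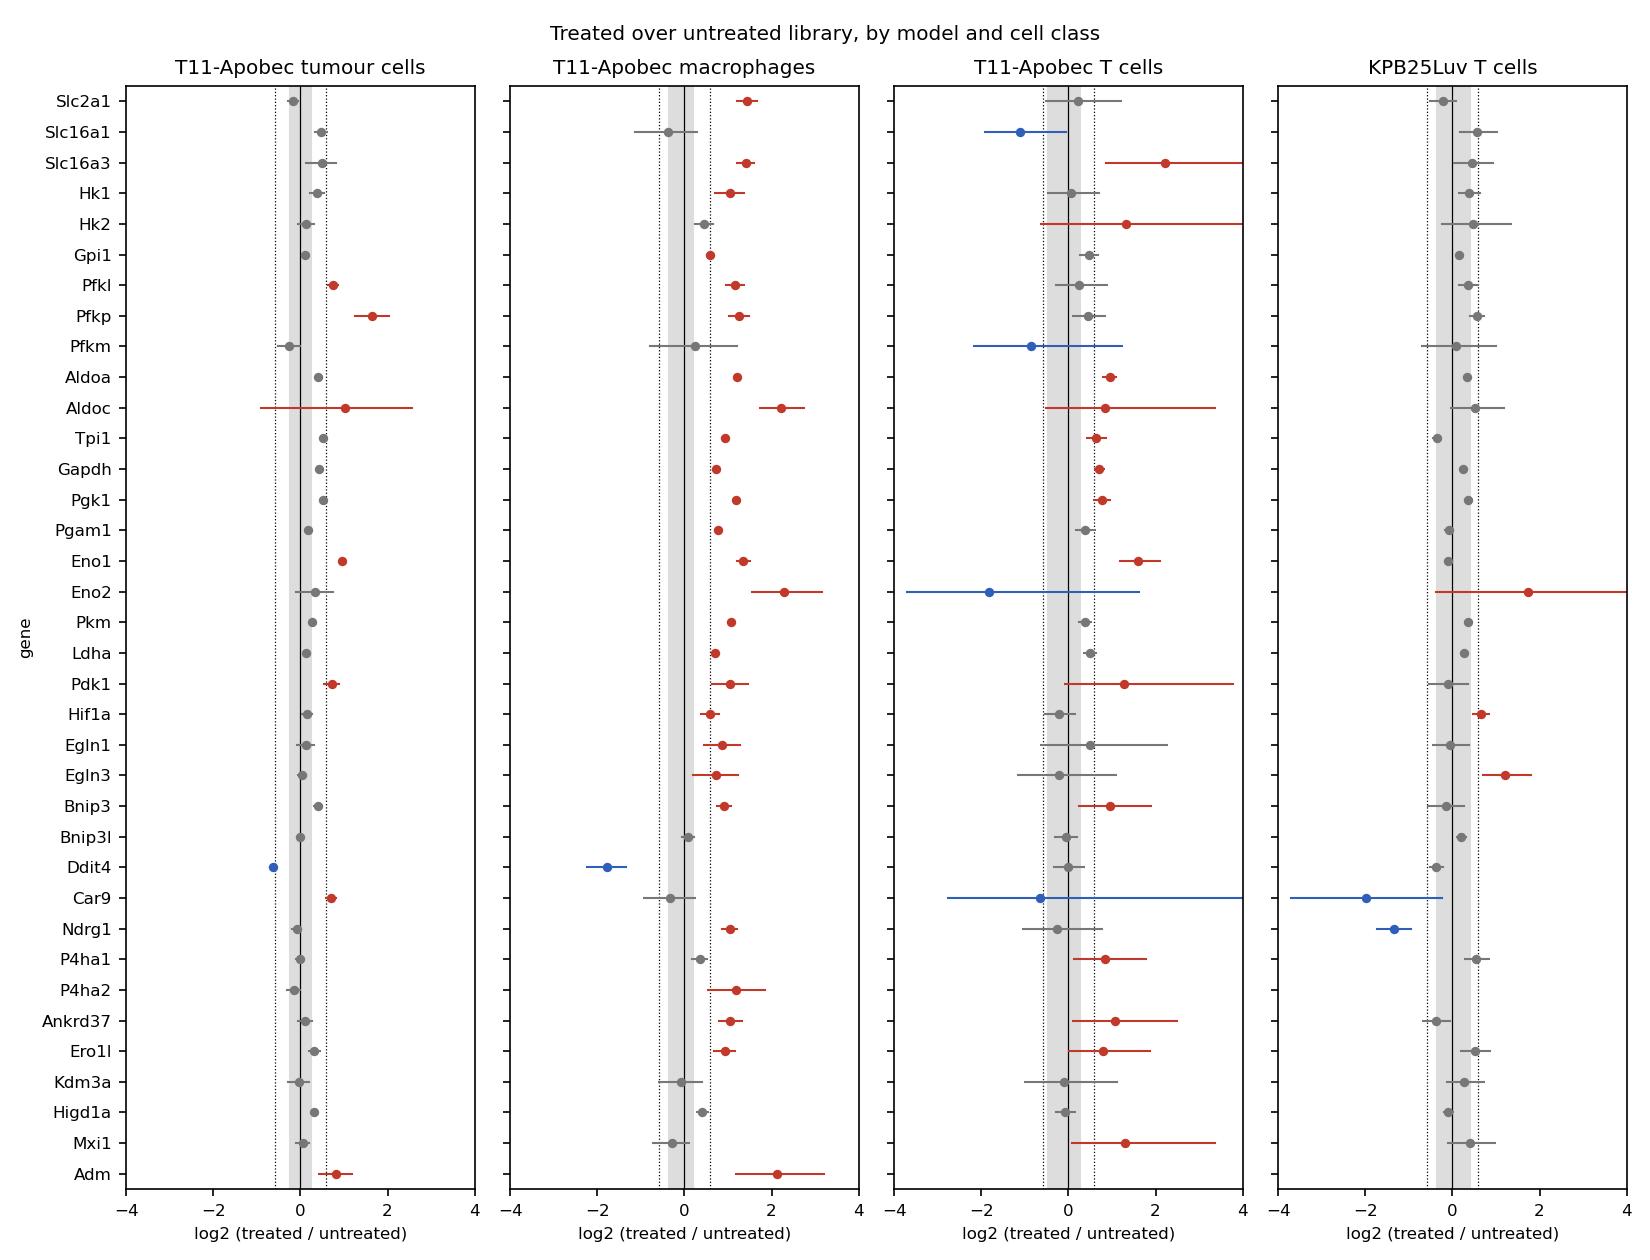
Log2 ratio of the treated over the untreated library for each gene tested (points) with exact 95% intervals for counting error (lines, ending at the axis limit where they run beyond it), in red where at least 1.5-fold higher and in blue where lower. Grey bands hold the middle 50% of all genes tested; 26 points are red in T11-Apobec macrophages, against 7, 14 and 3 in the other panels.

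In T11-Apobec tumour cells 7 of 36 genes were higher in the treated library and 1 was lower, against 12.1% and 9.53% of all 13775 genes tested. The median log2 ratio was 0.29 for the 36 genes and -0.02 for all. Pfkp stood at 7.08 CPM (5.74 to 8.64) against 2.26 (1.90 to 2.66), a log2 ratio of 1.65 (1.26 to 2.03). Eno1 stood at 253 against 130, a ratio of 0.96 (0.90 to 1.02). Pfkl, a second phosphofructokinase, had a ratio of 0.75, Pdk1 of 0.72, Car9 of 0.70 and Adm of 0.82. Aldoc, called higher from 5 and 12 UMIs, has an interval that holds 0.

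Several oxygen-response genes were level in these tumour cells. Egln3 stood at 87.05 CPM (82.2 to 92.1) under treatment and 85.5 (83.2 to 87.8) without. Ndrg1, a differentiation-related stress gene, stood at 75.6 against 80.5, and P4ha1, a collagen prolyl hydroxylase subunit, at 91.0 against 91.5. Ddit4 was the 1 gene lower, at 138 against 212, a log2 ratio of -0.62 (-0.69 to -0.55). The dissociation-stress list was lower for 12 of 18 genes here too, with a median of -1.01, and its part was not tested. When T11-Apobec tumour cells were instead set by the NeomycinResistanceGene transcript (312 and 1372 cells), 2 of 35 genes tested were higher and 3 lower (Slc2a1, Ddit4 and Ndrg1), against 10.35% and 10.31% of all genes, so these counts depended on how the tumour cells were chosen. Eno1 and Pfkp had ratios of 0.79 and 1.11 under that choice, whereas Pfkl, Car9, Adm and Pdk1 were within 1.5-fold at 0.27, 0.30, 0.21 and 0.17. Adm stood at -0.024 when every cell was thinned to 1000 UMIs.

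In T11-Apobec T cells 14 of 34 genes tested were higher in the treated library and 4 lower, against 13.3% and 20.1% of all 11417 genes. The untreated library had 341 T cells and 653750 UMIs of them, so most of these calls rest on few UMIs. With each cell thinned to 1000 UMIs, 8 of 31 genes tested were higher and 2 lower, against 17.84% and 19.41% of all genes. Eno1 stood at 197 CPM (190 to 205) against 64.2 (46.3 to 86.8), a log2 ratio of 1.601 (1.18 to 2.09). Slc16a3 stood at 24.7 against 4.59, the latter from 3 UMIs, a ratio of 2.21 (0.87 to 4.71). Aldoa, Pgk1, Gapdh and Tpi1 followed with 0.95 (0.80 to 1.10), 0.76, 0.71 and 0.63. Of the dissociation-stress list 4 of 18 genes were higher and 7 lower here, with a median of -0.38, and its part was not tested.

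The 4 genes called lower in these T cells, Slc16a1, Pfkm, Eno2 and Car9, had 1 to 12 UMIs in the untreated library, and the intervals of all but Slc16a1 hold 0. Hif1a, the oxygen-regulated factor subunit, stood at 98.6 against 113 CPM, within its interval of no difference. P4ha2 and Adm had 0 UMIs in untreated T11-Apobec T cells and were not tested; 3 UMIs there would be 4.59 CPM. The summed level of the 36 genes was 8158 (8108 to 8208) under treatment and 5514 (5336 to 5697) without.

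In KPB25Luv T cells 3 of 34 genes were higher and 2 lower, against 15.7% and 17.1% of all 12363 genes, and the median log2 ratio was 0.27 against 0.04. Egln3 stood at 15.1 CPM (13.5 to 16.9) under treatment and 6.455 (4.44 to 9.07) without, a ratio of 1.21 (0.71 to 1.79). Hif1a stood at 86.0 (82.0 to 90.2) against 54.6 (48.4 to 61.4), a ratio of 0.65 (0.47 to 0.84). Eno2 was called from 19 and 1 UMIs, with an interval that holds 0. With every cell given equal weight, 8 genes were higher, against 16.37% of all genes. Of the dissociation-stress list 7 of 18 genes were higher and 4 lower, with a median of 0.45, and its part was not tested.

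Ndrg1 was lower in treated KPB25Luv T cells, at 6.91 CPM (5.81 to 8.16) against 17.6 (14.2 to 21.6), a log2 ratio of -1.35 (-1.74 to -0.95). Free RNA at the level of Wfdc2 would bring 10.2 CPM of Ndrg1, or 58.2% of the untreated level, and 26.0% of that of Car9, the other gene called lower, from 7 UMIs in each library. For Eno1, by contrast, T cells of the 2 KPB25Luv libraries stood close together, at 451 and 482. Whether the effect of treatment on T cells differed between the models was not tested. Eno2 was called in opposite directions in the 2 models, from 13 and 2 UMIs in T11-Apobec and 19 and 1 in KPB25Luv, and both intervals hold 0.

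The untreated libraries were then compared between models, T11-Apobec over KPB25Luv. They also serve as the controls of the treatment comparisons above, so the values of both sets of comparisons are not independent. In tumour cells 13 of 36 genes were higher in T11-Apobec and 4 lower, against 25.1% and 35.1% of all 15182 genes (60.2% in either direction), with a median log2 ratio of 0.22 for the 36 genes and -0.13 for all. In tumour cells of 4000 to 10000 UMIs only, 8 were lower, against 29.46% of all genes, and the count higher stayed within 1.5 times the 13. Those higher were 2 of 3 oxygen-sensor genes, Egln3 and Hif1a, 8 of 13 hypoxia-response genes and 3 of 15 glycolytic enzymes.

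Egln3 stood at 85.5 CPM (83.2 to 87.8, 5420 UMIs) in T11-Apobec tumour cells and at 0.944 (0.696 to 1.25, 48 UMIs) in those of KPB25Luv, a log2 ratio of 6.485 (6.09 to 6.94). A UMI was found in 54.1% of T11-Apobec tumour cells and 1.97% of KPB25Luv tumour cells, or 7.65% and 0.0896% at an equal 1000 UMIs per cell. The 35 tumour cells of the treated KPB25Luv library had 0 Egln3 UMIs, where 3 UMIs would be 3.51 CPM. Within KPB25Luv the gene was detected in other classes, at 163 in neutrophils and 11.9 in macrophages, both above its tumour cells. Egln1, the prolyl hydroxylase that acts as the main sensor in most tissues, stood at 18.6 and 22.02 in the tumour cells of the 2 models.

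P4ha2, a second collagen prolyl hydroxylase subunit, stood at 40.7 CPM (39.2 to 42.3) in T11-Apobec and 1.87 (1.51 to 2.29) in KPB25Luv tumour cells, a log2 ratio of 4.44 (4.15 to 4.76). Car9 stood at 36.3 (34.8 to 37.8) against 2.93 (2.48 to 3.44), a ratio of 3.625 (3.39 to 3.88). Adm stood at 3.49 against 0.177, the latter from 9 UMIs, and P4ha1 at 91.5 against 27.1, with ratios of 4.22 and 1.76. Hif1a stood at 58.5 against 26.8, a ratio of 1.12 (1.03 to 1.22).

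Other targets of low oxygen stayed within 1.5-fold. Ndrg1 stood at 80.5 and 84.4 CPM in the tumour cells of the 2 models, Slc2a1 at 51.75 and 58.8, Ero1l at 39.1 and 34.7 and Higd1a, a mitochondrial respiration factor, at 284 and 239. Bnip3, Ddit4, Kdm3a, a histone demethylase, and Mxi1, an antagonist of Myc, were higher in T11-Apobec by log2 ratios of 0.65 to 0.72. The dissociation-stress list was higher in T11-Apobec tumour cells for 11 of 18 genes, with a median of 0.93, and its part in these differences was not tested.

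Lower in T11-Apobec tumour cells were Aldoc, Eno1, Pfkp and Slc16a3. Aldoc stood at 0.189 CPM (0.0978 to 0.331, 12 UMIs) against 23.2 (21.9 to 24.5, 1178 UMIs), a log2 ratio of -6.88 (-7.89 to -6.13). The other aldolase, Aldoa, stood at 587 and 531. Pfkp stood at 2.26 against 9.86 and Slc16a3 at 5.08 against 14.05, with ratios of -2.12 and -1.47. Hk2, Gpi1, the glucose phosphate isomerase, and Pgk1, which makes the first ATP of glycolysis, were higher in T11-Apobec, with ratios of 1.04, 0.85 and 1.025.

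Of the pathway list 17 of 54 genes tested were higher in T11-Apobec tumour cells and 15 lower, close to the 25.1% and 35.1% of all genes. Lox, an enzyme that crosslinks collagen, stood at 18.1 against 0.374 CPM, Ldhb, the second lactate dehydrogenase subunit, at 43.85 against 1.57, and Eno3, the muscle enolase, at 161 against 19.8. Angptl4, a lipase inhibitor induced by low oxygen, stood at 50.3 against 283. Vegfa, the angiogenic growth factor, was within 1.5-fold at 30.2 and 38.4.

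Eno1 was lower in T11-Apobec than in KPB25Luv in each of the 4 classes. It stood at 130 against 617 CPM in tumour cells, 67.0 against 607 in macrophages, 122 against 815 in neutrophils and 64.2 against 482 in T cells. The log2 ratios were -2.25 (-2.28 to -2.21), -3.18 (-3.31 to -3.05), -2.68 (-3.71 to -1.92) and -2.89 (-3.38 to -2.47). Among 4677 genes tested in all 4 classes, 25 (0.535%) were at least 4-fold lower in T11-Apobec in each class and 5 (0.107%) were at least 4-fold higher. Eno1 was the 1 gene among the 28 glycolysis and hypoxia genes tested in all 4.

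In treated T cells the Eno1 difference was smaller, 197 against 451 CPM, a log2 ratio of -1.19 (-1.26 to -1.13). The near-identical copy Eno1b, which reads of Eno1 could be split with, held 170 to 697 UMIs per library against 9840 to 53148 of Eno1. It was also lower in T11-Apobec tumour cells, with a ratio of -1.35. The mice of the 2 models are of different strains, and both were counted against the same reference build, so an effect of sequence differences on counting was not tested. Every Eno1 value above, the treatment ratios in T11-Apobec included, carries this limit.

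**Figure D4:**
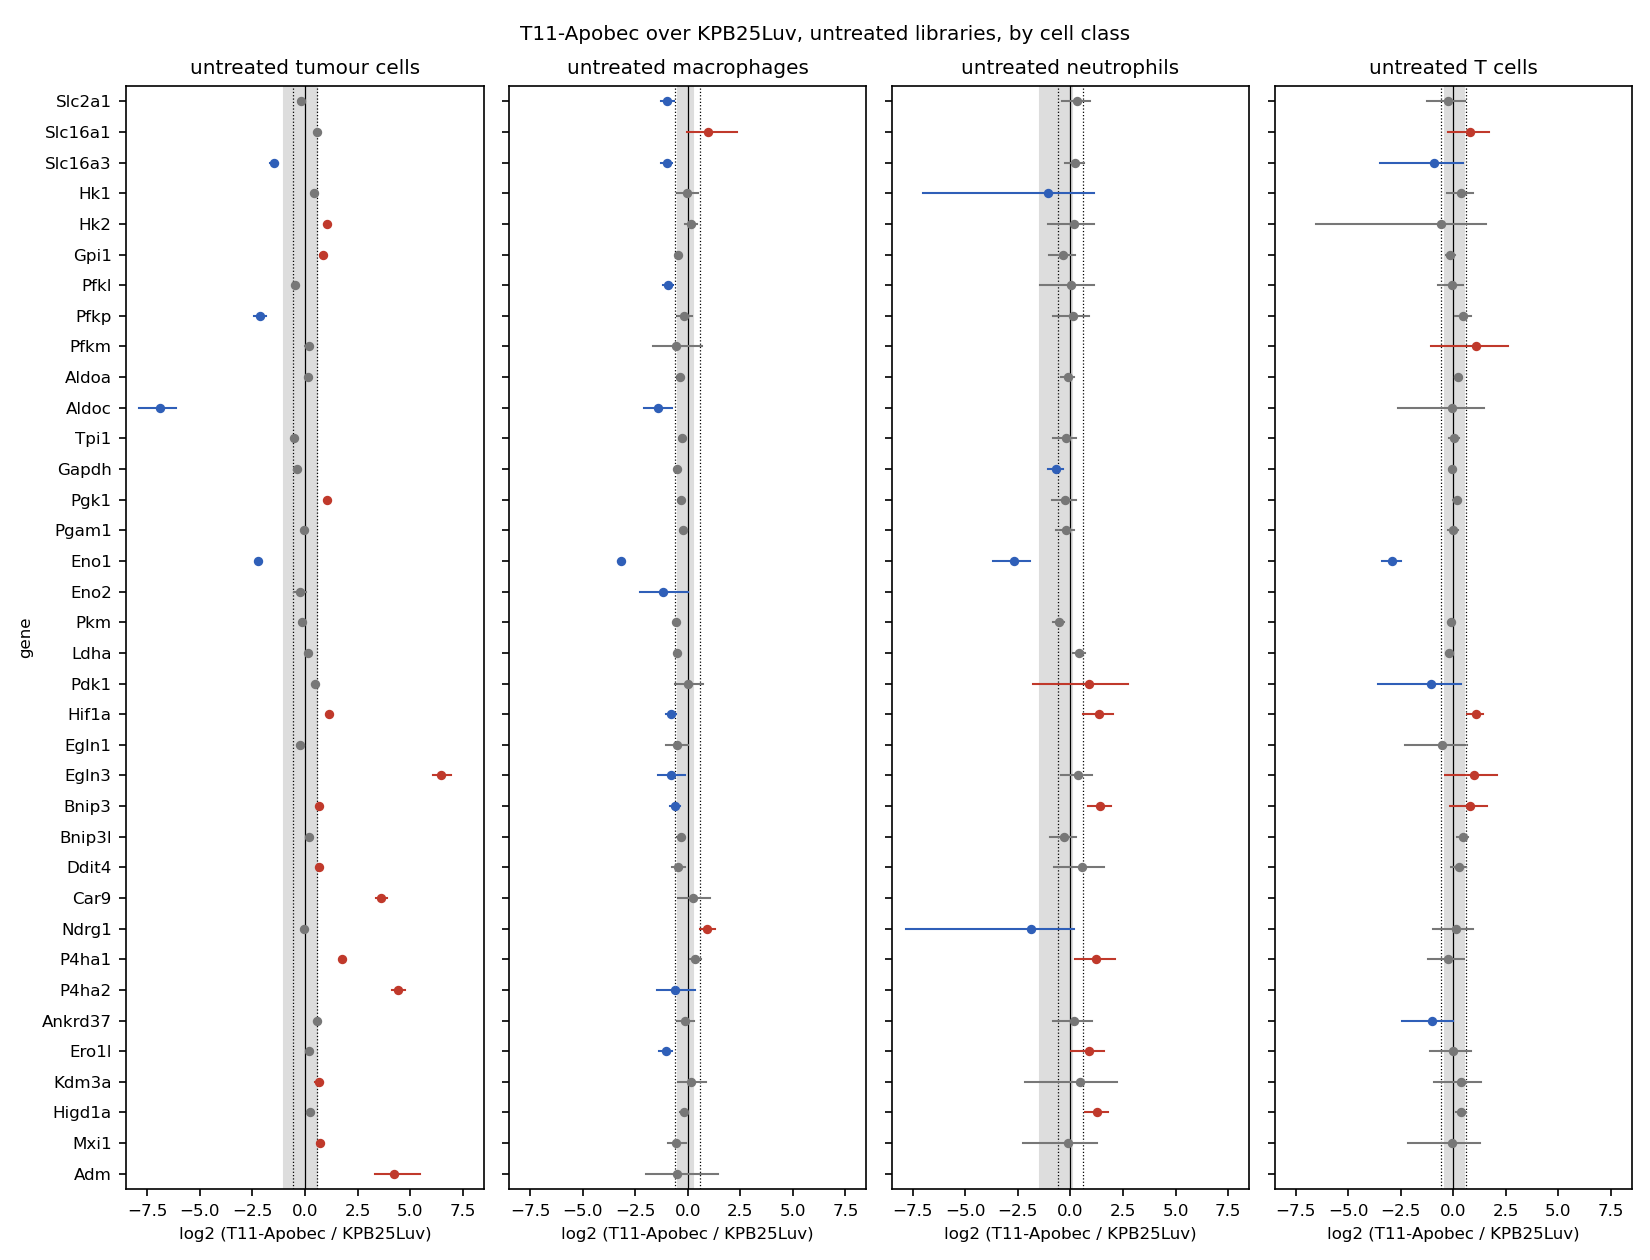
Log2 ratio of untreated T11-Apobec over untreated KPB25Luv for each gene tested in 4 cell classes (points), with exact 95% intervals for counting error (lines), in red where at least 1.5-fold higher and in blue where lower; grey bands hold the middle 50% of all genes tested. Eno1 is the gene that is blue in all 4 panels, and Egln3 and Aldoc lie at the 2 ends of the tumour-cell panel.

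In macrophages 2 of 36 genes were higher in T11-Apobec than in KPB25Luv and 11 lower, against 12.9% and 18.8% of all 11604 genes. The median log2 ratio was -0.48 for the 36 genes and -0.08 for all. Besides Eno1, the leading genes were Ero1l at 27.0 against 55.9 CPM, Slc16a3 at 37.5 against 75.3, Pfkl at 39.3 against 75.3, Slc2a1 at 25.2 against 49.4 and Hif1a at 43.3 against 75.7, with log2 ratios from -1.05 to -0.81. Ndrg1 was higher, at 48.6 against 25.6. Egln3, so far apart in tumour cells, stood at 6.92 (5.36 to 8.79) against 11.9 (8.19 to 16.7) in macrophages, in the other direction. Free RNA at the Wfdc2 level would bring between 1.08% and 16.15% of the KPB25Luv macrophage level of these genes except Ndrg1, for which it would bring 44.8%. At the Cdkn2a level it would bring 46.07% of Egln3 in T11-Apobec macrophages, 3.19 of 6.92 CPM, and at most 7.66% of the other genes named here; its part in the ratios was not tested.

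In T cells 5 of 32 genes were higher in T11-Apobec and 4 lower, against 21.1% and 18.7% of all 10760 genes (39.7% in either direction). Hif1a stood at 113 (88.9 to 142) against 54.6 CPM (48.4 to 61.4), a log2 ratio of 1.06 (0.66 to 1.43), and Ankrd37 at 10.7 against 22.9 was lower beside Eno1. In neutrophils 6 of 28 genes were higher and 4 lower, against 12% and 51.6% of all 4849 genes (63.6% in either direction), whose median log2 ratio was -0.63. Relative to that median 16 were higher and 2 lower, against 28.13% and 30.34% of all genes relative to it. The genes called higher, Hif1a, Bnip3, Higd1a, P4ha1, Ero1l and Pdk1, had 3 to 43 UMIs in the 136 T11-Apobec neutrophils.

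Detection of the hypoxia genes in the same cells was followed mainly in tumour cells. The hypoxia genes here were 18: the 13 hypoxia-response genes, the 3 oxygen-sensor genes Egln1, Egln3 and Hif1a, and Slc2a1 and Pdk1. Each tumour cell was thinned to 5000 UMIs, and pairs of these genes detected in 2% to 60% of cells were taken, with Hif1a set aside. For each pair the number of cells with both was divided by the number that the separate shares would give. In 4591 untreated T11-Apobec tumour cells the ratio was above 1 for 117 of 120 pairs, with a median of 1.33, and its counting interval lay above 1 for 90. In 2193 untreated KPB25Luv tumour cells it was above 1 for 66 of 66 pairs, with a median of 1.44, and for 41 the interval lay above 1. In 529 treated T11-Apobec tumour cells the counts were 111 of 120 and 37, with a median of 1.41. Cells of a library share its preparation, and these ratios describe the cells of that library. Macrophages gave like medians, 1.345 in untreated and 1.37 in treated T11-Apobec and 1.39 in untreated KPB25Luv, from 247 to 575 cells, with the interval above 1 for 22 of 120, 35 of 136 and 14 of 120 pairs, and Car9 had medians of 0.506 to 0.868 there. The difference between the classes was not tested.

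The median ratio of these genes with all other genes detected in the cells lay between 0.944 and 1.01 in untreated T11-Apobec tumour cells. The 95th percentile of these ratios, by gene, ran from 1.085 to 1.409 there. It ran from 1.165 to 1.678 in untreated KPB25Luv and from 1.251 to 2.915 in treated T11-Apobec tumour cells. In macrophages it ran from 1.259 to 3.742, and the median fell to 0 for P4ha2 in untreated KPB25Luv. Ndrg1 and Ankrd37 were found together in 278 of the untreated T11-Apobec tumour cells against 105 from their shares, a ratio of 2.65 (2.35 to 2.98). Pdk1 and Car9 were found together in 116 against 40.9, a ratio of 2.84 (2.346 to 3.405). In KPB25Luv the pair with the highest interval was Bnip3 and Ankrd37, in 58 cells against 29.3, a ratio of 1.98 (1.503 to 2.56).

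Genes differed in how far they took part. Over its pairs with the other hypoxia genes, Ankrd37 had a median ratio of 1.93 in untreated T11-Apobec and 1.72 in untreated KPB25Luv tumour cells, Pdk1 1.635 and 1.66, and Bnip3 1.56 and 1.59. Ddit4 had 1.08 and 1.14, and Bnip3l, a relative of Bnip3, 1.13 and 1.19. Egln3, the gene most raised in T11-Apobec over KPB25Luv tumour cells, had a median of 1.15 there, with 6 of 15 intervals above 1, against 15 of 15 for Ankrd37. Hif1a transcripts, whose protein and not whose RNA is set by oxygen, had medians of 1.18, 1.13 and 1.08 in untreated T11-Apobec, untreated KPB25Luv and treated T11-Apobec tumour cells.

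**Figure D5:**
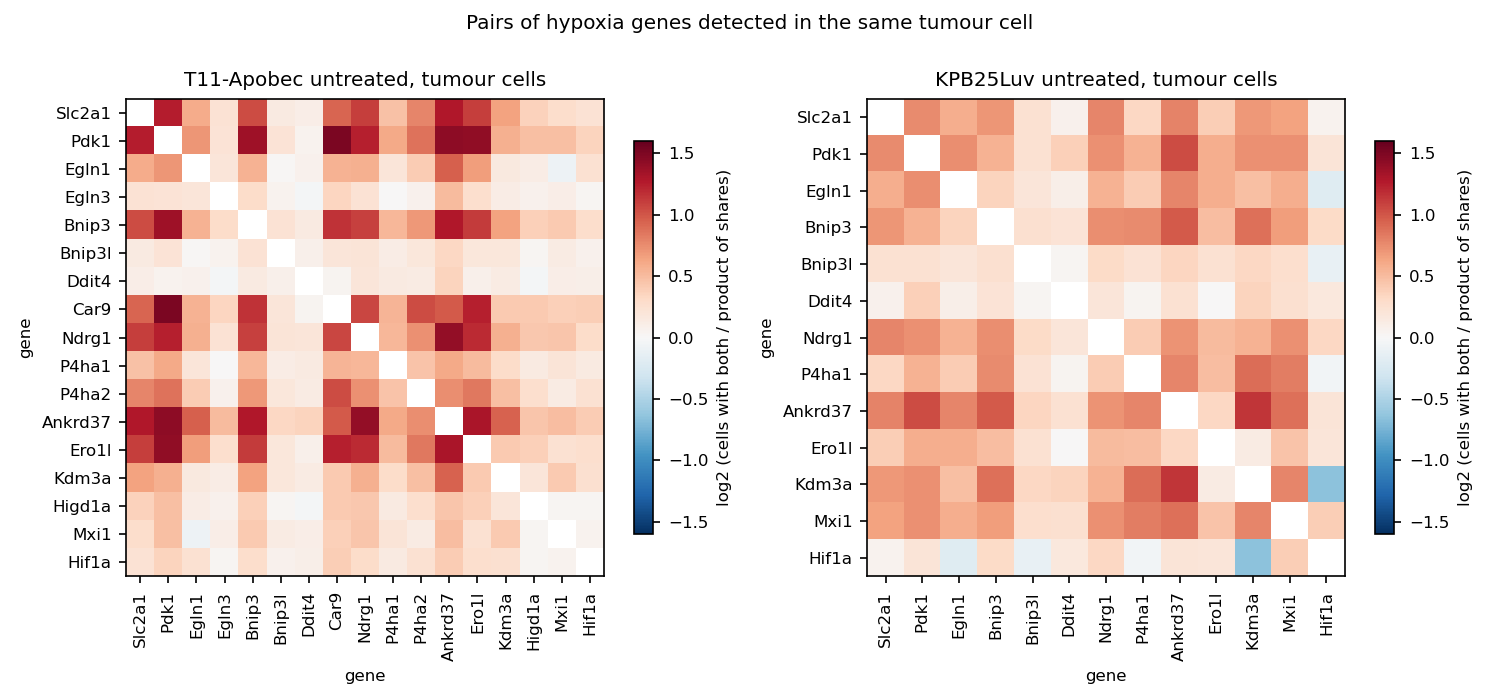
Log2 of the number of tumour cells with UMIs of both genes over the number expected from their separate shares, for pairs of hypoxia genes in untreated T11-Apobec (left) and untreated KPB25Luv (right), each cell thinned to 5000 UMIs. Red squares, where 2 genes were found together more often than their shares give, are strongest among Pdk1, Bnip3, Car9, Ndrg1, Ankrd37 and Ero1l on the left, and the rows of Ddit4, Bnip3l and Hif1a are pale in both panels.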

How the data were processed

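The deposited values were raw UMI counts per gene and cell barcode. Per the file headers the matrices come from Cell Ranger 3.0.2, and per the submitters' processing notes the build was mm10. The 36 genes, the pathway and stress lists and the cell markers were chosen with earlier results of these data known. Cells with under 200 detected genes or over 10% mitochondrial UMIs were removed, then the highest Scrublet scores (scanpy 1.11.5) at 0.8% per 1000 barcodes, 232 to 933 cells per library. Scrublet's own threshold marked 2, 352, 3 and 8 barcodes.

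A cell joined a class with at least 3 distinct markers of it and, per 10000 UMIs, at least 22 marker UMIs for T or tumour cells, 64 for macrophages or 181 for neutrophils, and under 16, 32 and 64 of the other classes. Cells with over 1 marker of B, NK, endothelial, fibroblast, pericyte or dendritic cells were left out, as were tumour cells with over 1 Ptprc UMI. T11-Apobec tumour cells with at least 3 distinct markers of KPB25Luv tumour cells were also left out. These thresholds were set after seeing the marker UMIs, not the 36 genes. A second Aldoa row with 3 UMIs in all was not used.

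Counts were summed per class and library and divided by the class total. Log2 ratios had 0.5 counts added and exact conditional 95% intervals. Over all genes the same calls were counted as background. Named genes had at least 50 UMIs where higher, up to 6 in each direction by the interval end nearest to 0; other genes are named to account for the list or with their values in view. A class top needed 10 UMIs in that class, a minimum set after seeing the data. Without it 15 and 13 genes were highest in neutrophils. The shares of all genes given for neutrophils hold with the minimum and do not apply to these 2 counts. Ratios and intervals were tested on simulated Poisson counts without variation between cells or libraries, which checks the calculation only. Alternatives are given in the closing section. Python 3.11.15, numpy 2.4.6, scipy 1.17.1 and pandas 2.3.3 were used.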

Additional observations from a re-analysis of the deposited data

How the results depend on the processing

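No paired analysis was possible because each group has 1 library, and for the same reason no library could be left out. The counts of genes were recomputed under up to 11 alternatives each: of 270 recomputed counts, 231 stayed within 1.5 times the count reported. Counts not named below, such as the 26 genes higher in treated T11-Apobec macrophages (24 to 27) and those highest in neutrophils, stayed within it under each alternative that could be run. Neutrophils fell under 50 cells in T11-Apobec with at least 500 detected genes or 1000 UMIs and in both libraries between 4000 and 10000 UMIs, so no value was had there. Of single gene ratios, 2680 stayed inside their interval, 304 moved beyond it and 4 reversed; the cause was not tested.

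Percentages in brackets are the shares of all genes under the same setting. With treated over untreated T11-Apobec tumour cells set by neomycin transcript, 2 genes were higher (10.35%) and 3 lower (10.31%). Thinned to 1000 UMIs, 3 were lower in tumour cells (16.68%) and 3 in macrophages (18.4%). In macrophages 2 were lower with equal cell weights (14.57%) and 2 at 4000 to 10000 UMIs (18.22%). In T11-Apobec T cells thinning gave 8 higher (17.84%) and 2 lower (19.41%), and a minimum of 50 UMIs gave 2 lower (12.62%). In KPB25Luv T cells the count higher was 5 with 1 more marker (16.22%), 8 with equal weights (16.37%) and 6 at 4000 to 10000 UMIs (18.31%). At 50 UMIs 1 was lower (9.968%). Between models, 8 were lower in tumour cells at 4000 to 10000 UMIs (29.46%). In macrophages 1 was higher with equal weights (17.92%) or thinning (18.6%). In T cells 7 were lower when thinned (20.83%), and 3 and 8 were higher at 50 UMIs (15.88%) and at 1 UMI (35.68%). In neutrophils 2 were lower at 50 UMIs (50.33%), and 16 were higher and 2 lower when centred (28.13% and 30.34%).

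Of genes highest in a class, untreated T11-Apobec gave 16 in tumour cells (30.34% of all genes), 2 in macrophages (11.97%) and 3 in T cells (9.257%) with at least 500 genes, 14 (27.72%), 2 (12.24%) and 2 (7.883%) thinned, and 24 (40.87%) and 4 (23.48%) in tumour cells and macrophages at 4000 to 10000 UMIs. The tumour count lay below its share of all genes with neutrophils among the classes and above it in these settings; each of these settings left fewer classes to compare. Treated T11-Apobec gave 1 in T cells without doublet removal (18.01%) or with equal weights (19.16%). It gave 18 in macrophages (22.86%) and 5 in T cells (35.95%) at 4000 to 10000 UMIs, without tumour cells. Untreated KPB25Luv gave 7 in tumour cells (23.72%), 0 in macrophages (4.573%) and 1 in T cells (8.781%) thinned, and 6 in macrophages (13.42%) and 2 in T cells (11.11%) at 4000 to 10000 UMIs. The restriction to 4000 to 10000 UMIs was chosen after seeing the data. When thinned, 4 ratios changed sign: Adm to -0.024 in T11-Apobec tumour cells and Car9 to 0.076 in T11-Apobec T cells by treatment, and Slc16a1 to -0.17 and P4ha2 to 1.38 in macrophages between models. Depth limits the T11-Apobec T cells and all neutrophils most.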

Other observations

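Classes with under 50 cells entered no comparison, and their values are given here alone, for genes chosen with the values in view. The 35 tumour cells of the treated KPB25Luv library held 854581 UMIs, and the 36 genes summed to 11380 CPM in them (95% Poisson interval 11150 to 11610). Aldoa stood at 1343 CPM, Ldha at 915, Eno1 at 591, Ndrg1 at 261, Hif1a at 72.6 and Slc16a3 at 44.5. The 22 macrophages of that library held 106770 UMIs, with the 36 genes at 10680 CPM (10070 to 11320). In them Hif1a stood at 403 and Bnip3 at 290 CPM, from 43 and 31 UMIs.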
